A study of Caenorhabditis elegans with 2 samples.

Results

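The homeobox genes of *Caenorhabditis elegans* that carry *ceh* names were examined for binding of LIN-39, the Hox transcription factor of the worm's midbody. The members are all protein-coding genes whose Ensembl name starts with *ceh-*, apart from 5 genes left out by the rule (*ceh-13*, *ceh-20*, *ceh-24*, *ceh-40* and *ceh-60*), which gave 58 of 19973 protein-coding genes. The assay was ChIP-seq, in which DNA bound by the tagged protein is immunoprecipitated and sequenced, on whole L3 larvae of mixed sex. The 2 biological replicates form a single group, eGFP-LIN-39 L3, with no second condition. Both came from strain OP18, which is *unc-119(ed3)* on chromosome III and carries eGFP-tagged *lin-39* as the integrated transgene wgIs18, so every value comes from 1 transgenic strain. A gene was counted as bound where a peak summit lay in its body or up to 2000 bp upstream. The authors' list thresholded for reproducibility (the optimal list) holds 4250 peaks on build ce11. Their pooled relaxed list of 30000 holds the same peaks and weaker ones below them. Of the 4250 optimal summits, 3908 (92%) lay under a peak of each replicate, so a place in the list does not show a peak in both. Signal is the authors' value per peak, has no error of its own and is comparable only within a list; read depth is unknown.

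A homeobox encodes the homeodomain, a helix-turn-helix fold that places a recognition helix in the major groove of DNA. Many *C. elegans* homeobox genes act as terminal selectors, factors that switch on and keep on the genes that give a neuron its identity, and others pattern the embryo, pharynx, epidermis or gonad. LIN-39 is itself a homeodomain protein that acts in vulval precursor cells, midbody motor neurons and migrating neuroblasts. Together with the Pbx-type partner CEH-20 it can bind composite Hox-cofactor sites, searched here as TGATNNAT on both strands. Whole larvae mix all of these cells, so a peak cannot be assigned to a cell type.

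The sequences under 4 of the optimal peaks are shown because they are the ones the results turn on: the strongest peak, peaks upstream of *ceh-39* and *ceh-58* with no other protein-coding gene in reach, and an intronic peak. Sequences are from the RefSeq genome of WBcel235, the assembly of ce11. All are from the plus strand of ce11, 5′ to 3′, and capitals would mark TGATNNAT on either strand. No capitals appear, since none of them holds a match. The first is the part of the *ceh-38* peak that lies before the first annotated transcript start (chrII:6951409-6951525), and the others are the 101 bp centred on the summit at *ceh-39* (chrX:1856285-1856385), *ceh-58* (chrII:10370944-10371044) and *ceh-18* (chrX:3854127-3854227).
ceh-38: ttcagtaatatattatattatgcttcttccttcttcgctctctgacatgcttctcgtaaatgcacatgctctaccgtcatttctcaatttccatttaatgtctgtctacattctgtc
ceh-39: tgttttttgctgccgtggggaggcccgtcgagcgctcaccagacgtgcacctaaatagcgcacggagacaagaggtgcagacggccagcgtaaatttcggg
ceh-58: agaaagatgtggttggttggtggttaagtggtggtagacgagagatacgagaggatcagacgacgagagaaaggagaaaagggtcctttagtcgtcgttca
ceh-18: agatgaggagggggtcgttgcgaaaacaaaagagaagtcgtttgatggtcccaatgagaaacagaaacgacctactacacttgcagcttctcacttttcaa
G and C made up 59.4% of the *ceh-39* sequence, 47.5% of the *ceh-58* sequence and 44.6% of the *ceh-18* sequence, against a median of 48.5% around all 4250 optimal summits. The *ceh-38* stretch of 117 bp had 35.9%, but it ends before the summit and so is not comparable with that median.

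LIN-39 summits of the optimal list were found at 7 of the 58 *ceh* genes, 12.1% (95% Wilson interval 5.97 to 22.9%, which covers the counting of genes only), against 19.2% of all protein-coding genes. In order of signal these were *ceh-38*, *ceh-5*, *ceh-39*, *ceh-58*, *ceh-8*, *ceh-18* and *ceh-2*, each with a single optimal summit. The share over all genes lies inside the interval of the *ceh* genes, so a lower share of the *ceh* genes was not detectable at this number of genes. The *ceh* windows had a median of 4846.5 bp, against 4027 bp for all genes, and the bound shares of all genes in the same deciles of window length would give 11.97 bound members. The bound shares of the members' own chromosomes would give 11.7. With the pooled relaxed list, which includes the optimal peaks, 38 of the 58 genes (65.5%) had a summit, against 61.5% of all genes. A pooled but no optimal summit was found at 31 *ceh* genes (53.4%), against 42.3% of all genes. Among the 7 bound genes the optimal summits were of ordinary strength: their median signal was 56.4, against 52.6 for all optimal peaks.

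**Figure D1:**
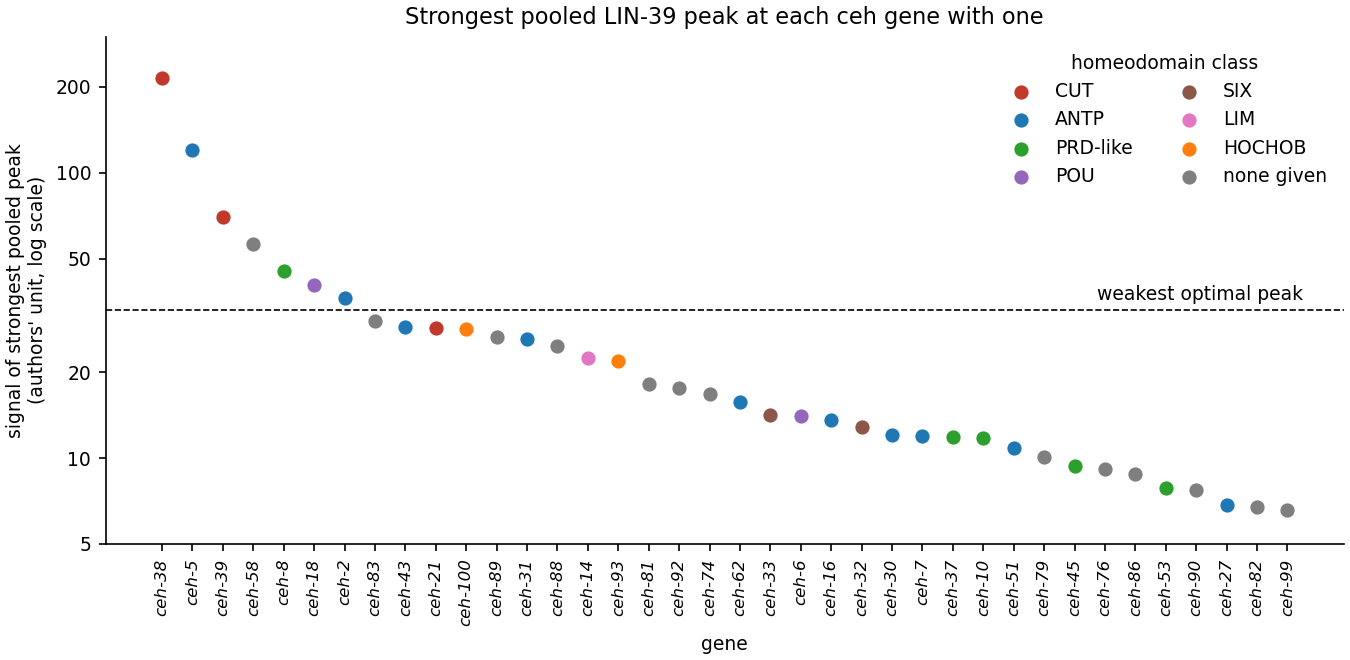
Signal of the strongest pooled peak (authors' unit, log scale) in the window of each of the 38 *ceh* genes that had one, ordered from high to low and coloured by homeodomain class. The dashed line is the weakest optimal peak (33.1); 7 genes lie above it, from *ceh-38* at 215 to *ceh-2* at 36.4.

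The strongest peak belonged to a gene of the CUT class, whose proteins join a homeodomain to cut domains. *ceh-38* is a ONECUT gene expressed in many cells that acts with other CUT genes on genes shared by all neurons. Its peak (chrII:6951409-6951724) had a signal of 215 and stood at rank 45 of 4250. In replicate 1 its signal was 97.6 at rank 73, and in replicate 2 it was 120 at rank 55. The summit lay 41 bp inside the first of the gene's transcript starts, and 267 bp upstream of *malt-1*, a paracaspase gene read the other way, whose window holds the same summit. In both replicates this was the strongest peak at any *ceh* gene.

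A second ONECUT gene, *ceh-39*, is an X-signal element, one of the X-linked factors by which an embryo counts its X chromosomes. Its peak (chrX:1856177-1856492, signal 70.1, rank 1235) had its summit 163 bp upstream of the only annotated start. Its signal was 42.1 (rank 847) in replicate 1 and 24.9 (rank 3042) in replicate 2, inside the 4250 strongest of each. No other protein-coding gene had this summit in its window. A noncoding RNA gene, *T26C11.10*, lay within 200 bp.

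**Figure D2:**
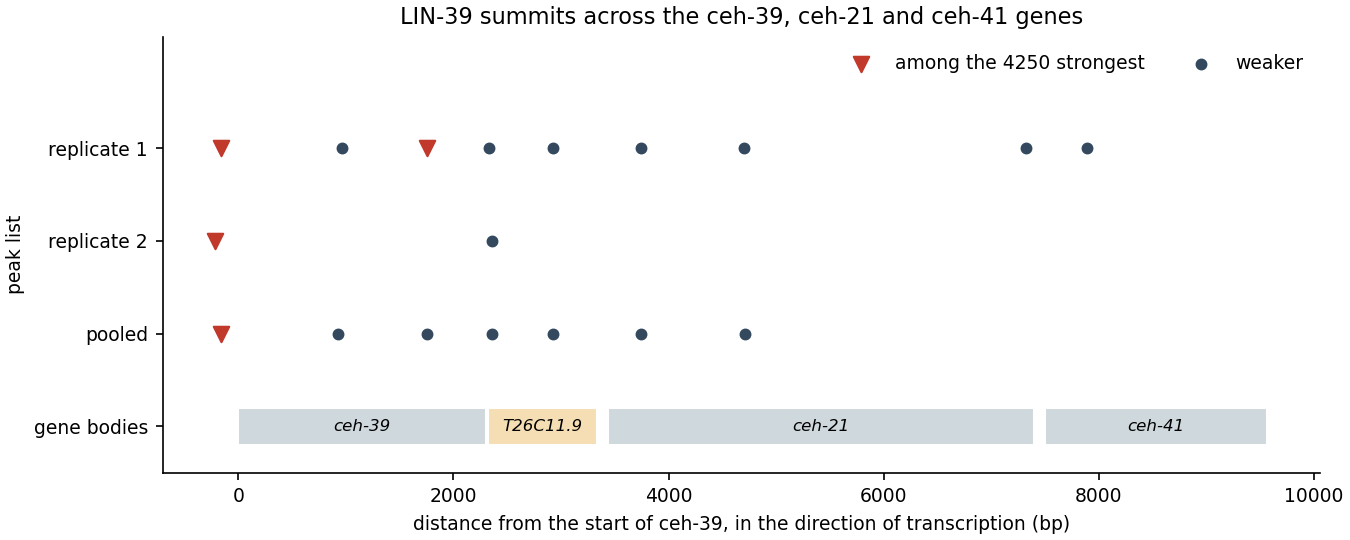
Summits across the ONECUT genes *ceh-39*, *ceh-21* and *ceh-41* and the intervening gene *T26C11.9* in replicate 1, replicate 2 and the pooled list, by distance in bp from the start of *ceh-39*; triangles are peaks among the 4250 strongest of their list and circles weaker ones. Replicate 1 holds 9 summits from the end of *ceh-41* to 2000 bp upstream of *ceh-39*, replicate 2 holds 2, and the upstream peak of *ceh-39* is a triangle in each list.

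*ceh-39*, *ceh-21* and *ceh-41* lie side by side on X within 9565 bp, all on the minus strand. From the end of *ceh-41* to 2000 bp upstream of *ceh-39*, replicate 1 had 9 summits, replicate 2 had 2 and the pooled list had 7. *ceh-21*, a further ONECUT gene, had 5 pooled summits, the strongest with a signal of 28.5 at rank 5132, below the optimal list. That summit lay 1075 bp upstream of *ceh-21* but 38 bp inside *T26C11.9*, the gene between them, and its ranks were 4522 in replicate 1 and 6325 in replicate 2. A second pooled summit (rank 8719) counted for both *ceh-21* and *ceh-39*; it ranked 3947 in replicate 1 and lay under no peak of replicate 2, and through it *ceh-21* counts as bound among the strongest peaks of replicate 1. *ceh-41* had no pooled summit and 2 weak ones in replicate 1, the better at rank 21608. The remaining CUT genes, *ceh-48* and *ceh-49*, were not bound. An optimal summit of signal 72.7 (rank 1136) lay 2148 bp upstream of *ceh-48*, beyond the window by a small margin, and the *ceh-48* start was the nearest protein-coding start to it. *ceh-49* had no summit in any list. In all, 2 of the 6 CUT genes were bound (33.3%), against 19.2% of all genes, and 6 genes are too few to compare.

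A further CUT gene by RefSeq, *ceh-44*, has another name in the Ensembl table (*cone-1*, WBGene00000464) and so is no member by the rule. It was looked up after the values were seen. The window of the RefSeq gene held 3 optimal summits, with a signal of 112 at a site 1809 bp upstream of the start, and of 67.4 and 37.3 in introns.

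The POU gene *ceh-18* acts in the sheath cells of the gonad, which control oocyte maturation. It had the most summits of any member, 7 in the pooled list over a window of 16431 bp, of which 1 was optimal. That peak (chrX:3854019-3854334, signal 40.6, rank 3188) lay in an intron, 3620 bp inside the gene and 1475 bp upstream of the start of a shorter transcript. The peak had signals of 21.4 (rank 2659) in replicate 1 and 21.04 (rank 3856) in replicate 2. Each list has its own scale, so the like signals do not show agreement, and by rank the peak stood further down in replicate 2. A noncoding RNA gene, *ZC64.5*, lay within 200 bp. The next *ceh-18* summits were at 446 bp upstream of the first start (signal 25.7, rank 5814) and 123 bp inside another start (signal 20.1). *ceh-6*, the other POU gene and a factor of the excretory canal, had 1 weak pooled summit (signal 14.1, rank 12056).

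Among the 18 genes of the ANTP class, to which the Hox genes also belong, 2 were bound (11.1%, against 19.2% of all genes). These were *ceh-5* and *ceh-2*, and both peaks lay at other annotated features. The *ceh-5* gene, a VAX-type homeobox gene, is short and lies almost wholly inside *ocrl-1*, which encodes an inositol phosphatase and is read from the other strand. The summit of its peak (chrI:9725238-9725553, signal 121, rank 324) was 1773 bp upstream of *ceh-5*, in an intron, inside the bodies of both *ocrl-1* and *eat-16*, an RGS protein gene. Its signal was 47.2 (rank 649) in replicate 1 and 63.5 (rank 383) in replicate 2, second to *ceh-38* among the members in both. The *ceh-5* start was the nearest protein-coding start.

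*ceh-2* is an EMX-type gene of pharyngeal neurons. The summit of its peak (chrI:6051028-6051343, signal 36.4, rank 3736) was 735 bp upstream, with a tRNA gene and a noncoding RNA gene within 200 bp. It was the weakest optimal summit among the *ceh* genes with a signal of 22.8 (rank 2403) in replicate 1 but 13.8 (rank 6485) in replicate 2. The tRNA gene, the noncoding RNA gene and the *ceh-2* start cannot be told apart as the feature this peak belongs to.

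The remaining ANTP genes had no optimal summit in their windows. The strongest pooled peak among them was at *ceh-43*, the Distalless-type gene of anterior epidermis and dopamine neurons, with a signal of 28.9 at rank 5041, 1179 bp upstream; it ranked 9270 in replicate 1 and 5740 in replicate 2. *ceh-31*, a BarH-type gene, had a signal of 26 in an intron, and its neighbour *ceh-30*, which protects male CEM neurons from cell death, had 12.1 just upstream of its start. *ceh-62*, *ceh-16* (the engrailed gene of seam cells), *ceh-7*, *ceh-51* (a mesoderm gene) and *ceh-27* had strongest pooled signals from 15.7 for *ceh-62* to 6.84 for *ceh-27*. *ceh-1*, *ceh-9*, *ceh-12* (a motor neuron gene of the VB class), *ceh-19*, *ceh-22* (an NK-2 gene of pharyngeal muscle), *ceh-23*, *ceh-28* and *ceh-63* had none in the pooled list. Optimal summits for which *ceh-30* and *ceh-22* had the nearest protein-coding start lay downstream of the genes, outside the windows, with signals of 52.3 and 34.2.

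In the PRD-like class, 1 of 8 genes was bound (12.5%, against 19.2% of all genes). The peak at *ceh-8*, a RAX-type gene (chrI:8245488-8245803), had a signal of 45.2 and rank 2713, but it was placed at the far end of the gene, 5302 bp from the start and 141 bp before the end. The nearest start was that of the collagen gene *col-63*, 683 bp away, and the summit was in the promoter class because of *col-63*. Its signal was 31.4 (rank 1444) in replicate 1 and 9.32 (rank 9401) in replicate 2, the largest difference in rank between replicates among the 7. The summit at the *ceh-8* start itself, 34 bp inside the gene, had a signal of 6.99 and was among the weakest of the pooled list (rank 27903). *ceh-37*, an OTX-type gene of sensory neurons, had 4 pooled summits with signals of at most 11.9. *ceh-10* (a selector of the AIY interneuron), *ceh-45* and *ceh-53* had signals of 11.7, 9.35 and 7.85. *ceh-17*, *ceh-36* (an OTX-type gene of the AWC and ASE sensory neurons) and *ceh-54* had no pooled summit.

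The genes of the other classes held no optimal summit. The LIM gene *ceh-14*, which acts in the AFD thermosensory neuron, had 1 pooled summit, near its end (signal 22.5). Of the genes of the class named after *sine oculis*, *ceh-33* (14.2) and *ceh-32* (12.8) had pooled summits and *ceh-34*, a selector of pharyngeal neurons, had none. Of the HOCHOB genes, *ceh-100* had a signal of 28.3 at rank 5168, 803 bp upstream of its start and 97 bp inside *lips-15*, a lipase-related gene, *ceh-93* had 21.9, and *ceh-91* had none.

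*ceh-58* was the only bound gene of the 17 to which no class was given (5.88%, against 19.2% of all genes). The peak (chrII:10370836-10371151, signal 56.4, rank 1886) was intergenic, 1397 bp upstream, with no other protein-coding gene in reach. Its signal was 21.6 (rank 2604) in replicate 1 and 33.1 (rank 1825) in replicate 2, among the strongest of each. The tandem neighbour *ceh-57*, whose start lies beyond the end of *ceh-58* by 444 bp, held no pooled summit. *ceh-83* had the strongest peak outside the optimal list, with a signal of 30.3 at rank 4766 and a summit 5 bp inside its start, against 36.4 at rank 3736 for *ceh-2*, the weakest member inside the list. The *ceh-83* peak ranked 3699 in replicate 1 and lay under no peak of replicate 2. *ceh-89* was the reverse: its peak (signal 26.6, 352 bp upstream and shared with *nkat-1*) ranked 2482 in replicate 2 and lay under no peak of replicate 1.

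**Figure D3:**
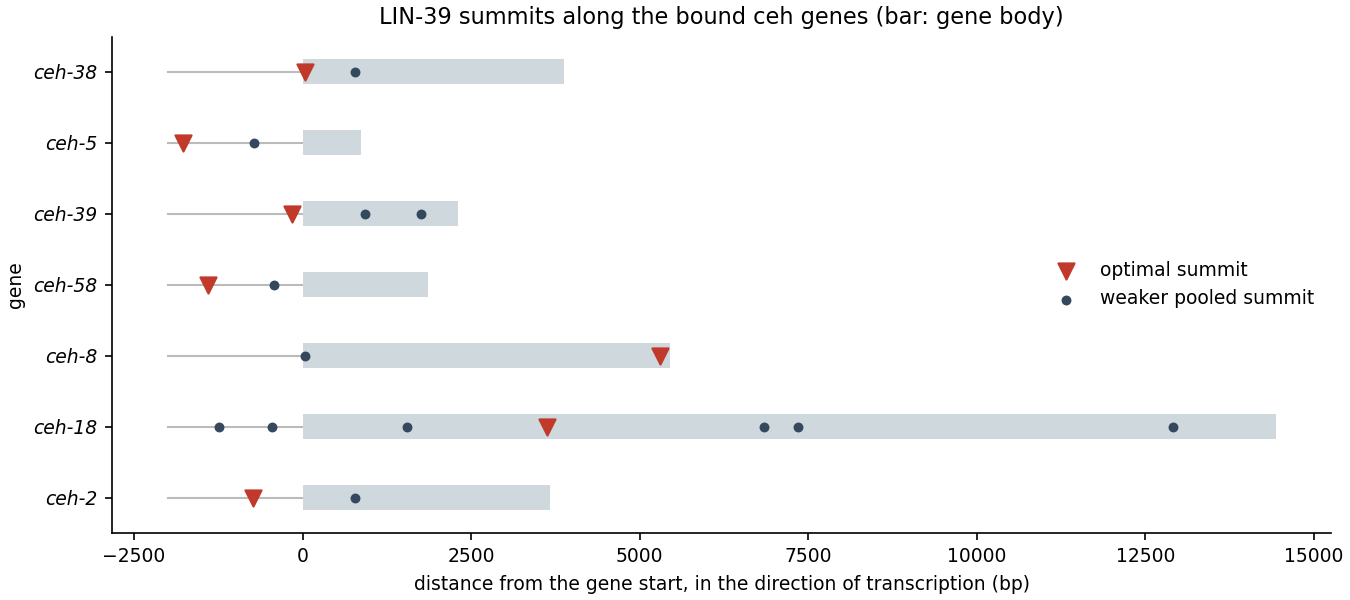
Position of every pooled summit in the windows of the 7 bound *ceh* genes, in bp from the gene start along the direction of transcription; grey bars are gene bodies, triangles optimal summits and circles weaker pooled summits. The optimal summit is within 200 bp of the gene start at *ceh-38* and *ceh-39* and at the far end of the gene at *ceh-8*.

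Promoter-class summits were the most frequent kind in *ceh* windows. Of the 7 optimal summits, 4 (57.1%) lay in the promoter class, which takes in 1000 bp before and 200 bp after any start of a protein-coding transcript, against 51.2% of all optimal summits. Of the others, 2 were in introns and 1 was intergenic. Of the 74 different pooled summits in *ceh* windows, 35 (47.3%) were in the promoter class, against 32.9% of all pooled summits, and 17 (23%) were in coding exons, against 22%. Intergenic summits made up 6 of the 74 (8.11%), against 18.4% of all pooled summits, and intronic ones 14 (18.9%), against 21.8%. Since the windows were drawn from gene starts and bodies, a higher promoter share and a lower intergenic share than over the whole genome are built into the choice of windows.

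Many of these summits could be counted for another gene as well. The nearest protein-coding start was that of a *ceh* gene for 62 of the 74 pooled summits, and 27 lay in the window of a protein-coding gene outside the set. Among the 7 optimal summits, those at *ceh-38*, *ceh-5* and *ceh-8* did. How often windows share a summit over all genes is not given here, so the sharing cannot be called particular to *ceh* genes. A noncoding RNA gene lay within 200 bp of 4 of the 7 optimal summits, against 22.7% of all optimal summits, and of 18 of the 74 pooled ones (24.3%), against 11% of all pooled summits. These counts leave out piRNA genes and pseudogenes. The *ceh* summits were chosen to lie in gene windows and the summits compared with them were not, and 7 summits are too few to compare shares. Among the optimal summits only the one at *ceh-2* had a tRNA gene there; among the weaker pooled ones 2 at *ceh-43* did. Whether polymerase III transcription at such genes has a part in the peaks was not tested.

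The composite motif was not found at the optimal summits of *ceh* genes. Within 50 bp of the summit, 0 of 7 held TGATNNAT, against 8.92% of all optimal summits, and with 7 summits a difference was not detectable. The closest match was at *ceh-5*, where it spanned 44 to 51 bp from the summit and so crossed the edge of the window. Leaving out 1 library changes this share: among replicate 1's own strongest peaks 2 of 11 *ceh* summits held a match (18.2%), against 6.35% of all 4250, and among replicate 2's 0 of 7 did, against 10.3%. Those in replicate 1 were the *ceh-5* peak, whose summit there is nearer to the same match, and the peak shared by *ceh-21* and *ceh-39*. In the pooled list 5 of 74 summits held it (6.76%), against 7.93% of all pooled summits, and windows centred 500 bp to the left and right of the same 74 summits held it at 9.46% and 6.76%. Of the 284 matches in all *ceh* windows, 0.891 per kb against 0.946 per kb over all genes, 7 lay within 50 bp of a pooled summit (2.46%, against 2.83% over all genes). Matches were counted gene by gene, so a match in overlapping windows, such as that shared by *ceh-21* and *ceh-39*, counts for each gene. The 300 bp from 250 upstream to 50 downstream of the gene start held a match in 11 of 58 *ceh* genes (19%), against 23.6% of all genes. No match says only that these letters were missing from the window.

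Of the 5 pooled summits with a match, 3 outside coding exons are shown, as 101 bp centred on the summit on the plus strand of ce11 with each match in capitals. They are the summits 1243 bp upstream of *ceh-18* (chrX:3858990-3859090, signal 9.43), 457 bp upstream of *ceh-43* (chrIII:4450350-4450450, signal 8.30, beside a tRNA gene) and 1120 bp upstream of *ceh-33* (chrV:5325736-5325836, signal 14.2, in an intron of *C10G8.8*).
ceh-18 upstream: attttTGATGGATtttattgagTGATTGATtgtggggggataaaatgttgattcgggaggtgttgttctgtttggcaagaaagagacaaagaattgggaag
ceh-43 upstream: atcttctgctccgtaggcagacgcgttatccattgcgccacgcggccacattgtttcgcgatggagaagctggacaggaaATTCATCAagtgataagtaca
ceh-33 upstream: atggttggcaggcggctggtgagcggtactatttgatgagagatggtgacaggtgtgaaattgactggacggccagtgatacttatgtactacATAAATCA
The *ceh-18* window holds 2 matches in the same orientation, and the matches at *ceh-43* and *ceh-33* read on the minus strand as TGATGAAT and TGATTTAT. The peaks were weak, at ranks 19878 for *ceh-18*, 23123 for *ceh-43* and 11947 for *ceh-33*. The other 2 matches were at the summit shared by *ceh-21* and *ceh-39* (TGATCAAT, 18 bp away) and in a coding exon of *ceh-10* (TGATGTAT, 20 bp away).

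*ceh-38* and *ceh-5* had the strongest and the next strongest *ceh* peak in both replicates, and the order differed below them. In replicate 1's own 4250 strongest peaks 11 *ceh* genes were bound (19%, against 18.3% of all genes), and in replicate 2's own 7 were (12.1%, against 19%). The 5 genes bound in both were *ceh-5*, *ceh-18*, *ceh-38*, *ceh-39* and *ceh-58*, all of them in the optimal list. That list comes from the same 2 replicates, so this overlap is largely built in. Counted by optimal peaks in both strongest lists, 8.62% of the *ceh* genes were bound, against 12% of all genes. Besides *ceh-2* and *ceh-8*, replicate 1 alone added *ceh-21*, *ceh-83*, *ceh-88* and *ceh-100*, and replicate 2 alone added *ceh-89* and *ceh-93*. The share of bound *ceh* genes was thus close to that of all genes in replicate 1 and below it in replicate 2.

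**Figure D4:**
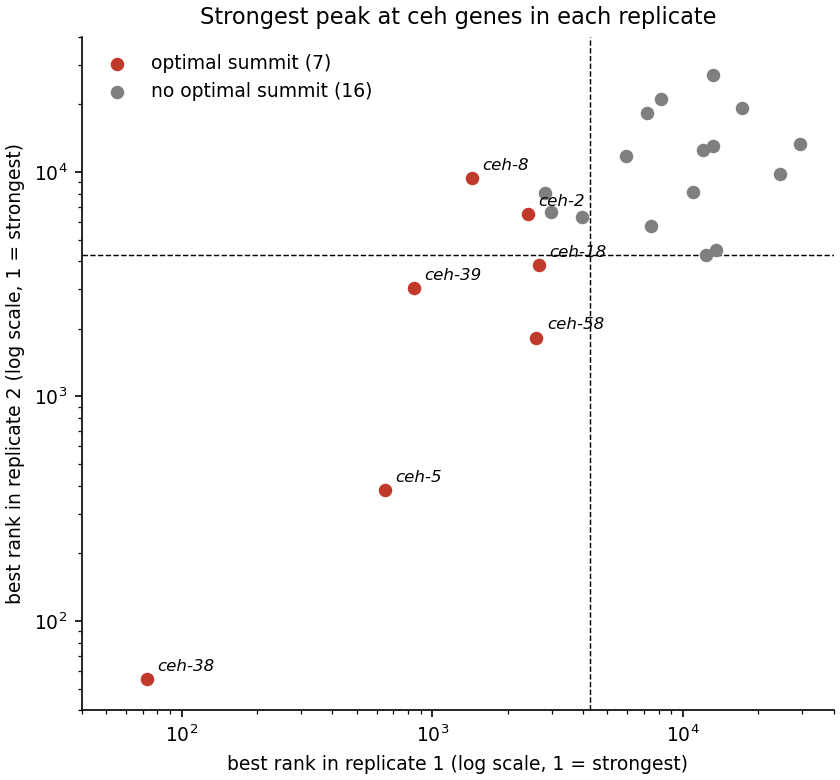
Best rank of a peak in the window (1 is strongest, log scales) in replicate 1 and replicate 2 for the 23 *ceh* genes with a summit in both relaxed lists; red points have an optimal summit and dashed lines mark rank 4250. 5 of the 7 red points lie inside both lines, and *ceh-8* and *ceh-2* lie outside that of replicate 2.

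In the relaxed lists 39 *ceh* genes had a summit in replicate 1 (67.2%, against 66.6% of all genes) and 29 in replicate 2 (50%, against 53.5%). Over the 23 genes with a summit in both, the best ranks had a Spearman rho of 0.642, against 0.667 over the 8984 genes with both; the replicates share control alignments, and the points share long windows. All 7 optimal *ceh* summits lay under a peak of each replicate, as did 92% of all optimal summits. Of the 74 pooled summits 22 did (29.7%, against 32% of all pooled summits), 29 lay under a peak of replicate 1 only, 11 under a peak of replicate 2 only and 12 under neither.

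No summit in any of the 4 lists was found at 12 *ceh* genes: *ceh-1*, *ceh-9*, *ceh-12*, *ceh-17*, *ceh-19*, *ceh-28*, *ceh-49*, *ceh-54*, *ceh-63*, *ceh-75*, *ceh-84* and *ceh-87*. A further 8 had none in the pooled list but a weak one in a replicate: *ceh-22*, *ceh-23*, *ceh-34*, *ceh-36*, *ceh-41*, *ceh-48*, *ceh-57* and *ceh-91*. A missing peak does not show a lack of binding. The share of all genes with no summit in any list is not given here. A pooled summit was found at 65.5% of the *ceh* genes, against 61.5% of all genes. The genes of no class with weaker pooled summits only, besides *ceh-83* and *ceh-89*, were *ceh-88* (24.8), *ceh-81*, *ceh-92*, *ceh-74*, *ceh-79*, *ceh-76*, *ceh-86*, *ceh-90*, *ceh-82* and *ceh-99*, the last at 6.57.

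**Figure D5:**
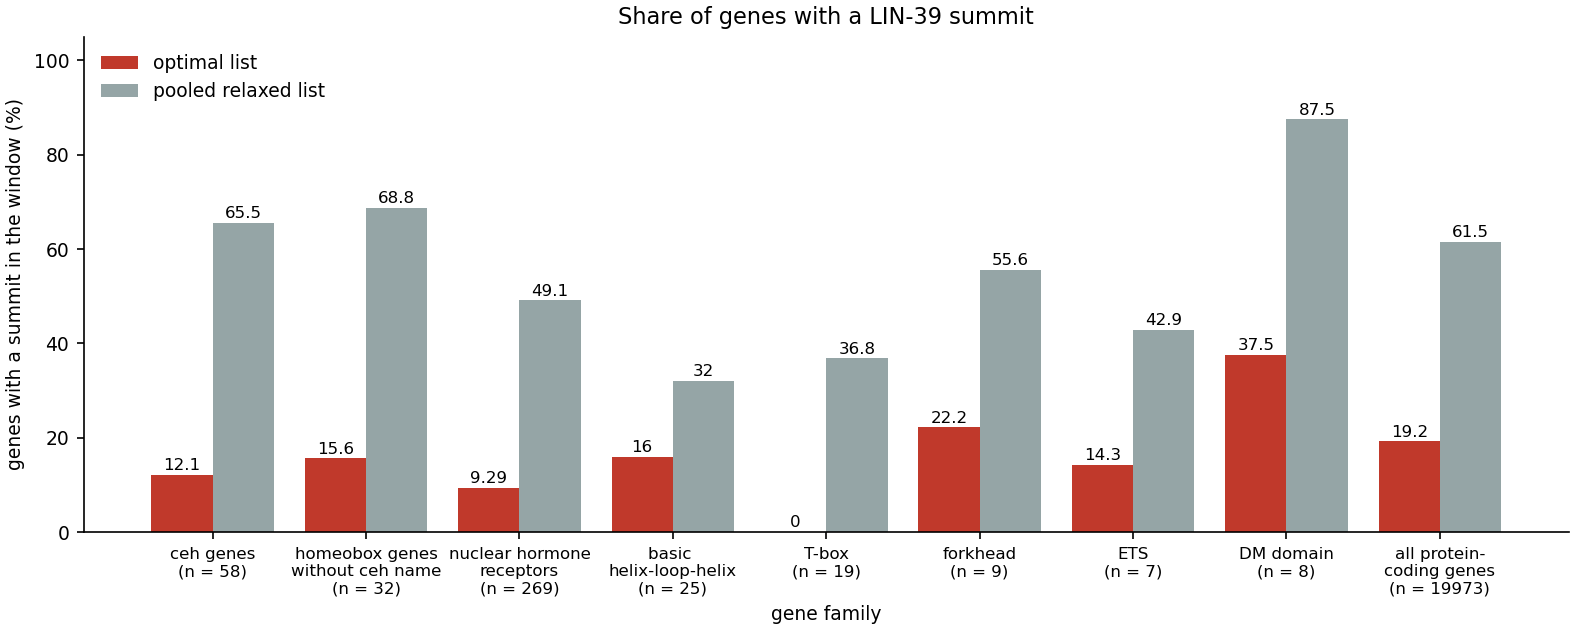
Share of genes with a LIN-39 summit in the window (%), in the optimal list (red) and the pooled relaxed list (grey). Shown are *ceh* genes, a chosen list of homeobox genes without a *ceh* name (no Hox genes), other families of transcription factors and all protein-coding genes. The *ceh* genes stand at 12.1% and 65.5%, DM domain genes highest at 37.5% and 87.5%, and all genes at 19.2% and 61.5%.

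By chromosome, 3 of the 8 members on I were bound, 2 of 13 on II and 2 of 16 on X, against 26.1%, 18% and 23% of all genes there. None of the 11 on V, 6 on III or 4 on IV was bound, where 11.2%, 27.3% and 17.1% of all genes were. A chosen list of homeobox genes that have other names gave a like picture. It leaves out the Hox genes and the Hox cofactor gene *unc-62*, so it does not give the share for all such genes. Of 32 listed genes found in the annotation, 5 were bound (15.6%) and 22 had a pooled summit (68.8%). These were *cux-7* (signal 106), *unc-30* (43.9), which sets GABA neuron identity, *zag-1* (39.2), *zfh-2* (38.3) and *irx-1*. Apart from *cux-7*, their signals lay below the median of all optimal peaks (52.6). Nuclear hormone receptors were bound at 9.29%, basic helix-loop-helix genes at 16% and ETS genes at 14.3%, and 0 of 19 T-box genes were. Forkhead genes (2 of 9, 22.2%) and DM domain genes (3 of 8, 37.5%) were above the 19.2% of all genes. The differences between these families were not tested.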

How the data were processed

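ChIP-seq of eGFP-LIN-39 in 2 replicates was used as peak lists. The signal per peak in each list is the authors' value, as deposited, set against control, with its own scale in each list; the summit offset in bp from the peak's start is another value as deposited. The aligner, the peak caller and its thresholds were not given in the sources used here. Text indexes that came with the samples as deposited name the same control alignments for both replicates. By signal, the top 4250 peaks of the pooled list are the optimal list. Depth is unknown, and Wilson intervals at 95% cover counting error only.

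Genes are from Ensembl release 115 (WBcel235, the assembly of ce11), whose chromosome lengths hold all peaks. All 58 members matched a RefSeq symbol, 49 with the same bounds. Coordinates are 1-based. A summit near a protein-coding start was classed as promoter first, then by UTR, exon or intron, and otherwise as intergenic. With 1 group, no test was made: shares stand beside those of all genes or summits. The members, lists and homeodomain classes were chosen with earlier results of these data known. Named with values by rule were every bound member, the 5 strongest unbound ones and the 4 strongest bound homeobox genes of other names; other values were chosen after they were seen. Of 33 listed homeobox genes of other names, 32 were in the annotation. The list leaves out the Hox genes and *unc-62*. The files on ce10 were not used here. Window assignment and motif search were tested on simulated data. Python 3.11.15, pandas 2.3.3, NumPy 2.4.6, SciPy 1.17.1 and Matplotlib 3.10.9 were used.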

Additional observations from a re-analysis of the deposited data

How the results depend on the processing

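The number of *ceh* genes with an optimal summit, 7, depended on the window and the list. It was 3 with gene bodies only (5.17%, against 5.22% of all genes), 3 with 1000 bp upstream to 500 bp downstream of the start (5.17%, against 12.4%), 11 with 5000 bp upstream (19%, against 27%), 2 among the 1000 strongest peaks (3.45%, against 5.76%) and 38 in the whole pooled list. Leaving out a replicate gave from 7 to 11 genes. With 1000 bp upstream the number was 5 (8.62%, against 15.6% of all genes), and with peak midpoints 7 (12.1%, against 19.2%). Any overlap of the peak gave 8 (13.8%, against 20.2%) and the nearest start 9 (15.5%, against 16%). Optimal peaks in both replicates' strongest lists gave 5 (8.62%, against 12%). Other alternatives were chosen after seeing the data. RefSeq bounds gave 8 genes (13.6%, against 19.1%), and summits in the window of a single gene gave 4 (6.9%, against 8.93%). The share was below that of all genes by every window rule above, though by little with gene bodies only and with the nearest start. It was above that of all genes in the pooled list and in replicate 1's own strongest peaks. These rules reuse many of the same peaks, so they are not separate evidence of a lower share. The motif was at 0 of 7 summits within 25 bp, 1 of 7 within 100 bp or by midpoints, and 2 of 11 (18.2%) without replicate 2. The promoter share was 28.6% with 500 bp upstream to 100 bp downstream. For summits nearest to a *ceh* start, the median signal was 63.2. No paired analysis was possible because there is a single group. Depth is unknown, and 7 summits cannot resolve shares.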
